A study of Mus musculus with 9 samples.

Results

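The integrated stress response was described in naive and activated mouse B cells through 10 genes, the transcription factor gene *Atf4* and 9 genes known as its targets or as part of its circuit. They were taken by symbol from the deposited expression table, which held all 10 among its 17596 genes, and all 10 passed the filter on low values. The libraries were made from primary B cells isolated from the spleen of mice aged 6 to 8 weeks on the C57BL/6J background. The control was the *Mb1Cre* mouse, which carries the Cre recombinase in the B cell-specific *Mb1* (*Cd79a*) locus. *Mct1f/fMb1Cre* mice (labelled cKO, here *Mct1*-deficient) carry the same Cre together with a floxed segment of *Mct1* on both alleles. Cre is thus present in every library. On day 0 the cells were naive and untreated, with 2 control and 2 *Mct1*-deficient libraries. The day 3 cells had been cultured for 3 days with IL-4 at 50 ng/ml and LPS at 10 μg/ml, which induce class switching, with 2 control and 3 *Mct1*-deficient libraries, and no library was cultured without LPS and IL-4, so that culture and activation cannot be told apart. The medium held nonessential amino acids.

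In the integrated stress response, kinases that sense amino acid shortage, unfolded protein in the endoplasmic reticulum, double-stranded RNA or lack of heme phosphorylate the translation factor eIF2. General translation then slows, while the mRNA of *Atf4* is translated more, and the ATF4 protein switches on genes for amino acid synthesis and import, for tRNA charging and, with its partner CHOP (gene *Ddit3*), for feedback and cell death. Growth signals through the kinase mTORC1 also raise ATF4, which ties the pathway to the biosynthesis of dividing lymphocytes. Because ATF4 is largely set by translation, the mRNA level of *Atf4* is not a measure of its protein.

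ATF4 binds as a dimer with C/EBP family members to the C/EBP-ATF response element, searched here as TGATGNAA on both strands. The RefSeq promoter windows of GRCm38.p6 run from 250 bases before to 50 bases after the annotated start of a gene. There, 4 of the 10 genes (40.0%) held these letters, compared with 4.51% of 27025 genes with a window and 2.78% of 8790 tested genes with one. The element was not particular to the 10 genes. Among genes with a window in the lists described below, 5 of 9 aminoacyl-tRNA synthetases and tRNA exporters held it. So did 2 of 6 amino acid transporters, 3 of 10 other ATF4 or CHOP targets and 2 of 9 amino acid synthesis enzymes. It was rarer in the eIF2 list (1 of 15), the paralogs (1 of 8) and the endoplasmic reticulum stress genes (1 of 10). The cAMP response element TGACGTCA, which shares its opening TGA with the other motif, was in no window of the 10 genes. It was in 2.03% of all genes with a window and 3.67% of the tested genes with one. A match is a description of the letters and not evidence of binding, and a window without one says nothing about sites elsewhere. The stretches around the 4 matches are shown because these are the genes that carry the element in the window, together with that of *Nupr1*, a further ATF4 target that separated the genotypes on day 3. Each is written 5′ to 3′ on the strand of its gene, with the match in capitals, where TTGCATCA and TTACATCA are the reverse complements of matches on the other strand.
Asns (chr6:7693210-7693269, minus strand): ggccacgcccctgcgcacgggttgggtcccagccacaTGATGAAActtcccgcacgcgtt
Atf3 (chr1:191183410-191183469, minus strand): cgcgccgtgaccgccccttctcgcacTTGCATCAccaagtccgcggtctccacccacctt
Chac1 (chr2:119351023-119351082, plus strand): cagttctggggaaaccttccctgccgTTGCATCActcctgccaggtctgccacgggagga
Trib3 (chr2:152344028-152344057, minus strand): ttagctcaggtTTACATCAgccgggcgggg
Nupr1 (chr7:126625547-126625606, minus strand): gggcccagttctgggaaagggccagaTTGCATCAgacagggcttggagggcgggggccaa
The match ended 16 bases before the start in *Asns*, 103 bases before it in *Atf3* and *Nupr1* and 186 bases before it in *Chac1*. In *Trib3* it lay inside the transcribed region, at bases 15 to 22. The 4 genes are among the 7 of the 10 that rose most with activation, described next, and the other 3 of these 7 had no match in the window. No match was found for *Bcl2l11* or *Cth*, which like *Nupr1* separated the genotypes on day 3, though not every listed gene had a window.

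The genes lie on 7 chromosomes of GRCm38.p6. *Atf4* spans chr15:80255184-80257545, *Atf5* chr7:44812256-44816658, *Atf3* chr1:191170296-191183333 and *Ddit3* chr10:127290793-127296291. *Cebpb* spans chr2:167688915-167690432, *Trib3* chr2:152337425-152344060, *Chac1* chr2:119351242-119354326 and *Ddit4* chr10:59949675-59951770. *Sesn2* spans chr4:132492804-132510456 and *Asns* chr6:7675165-7693209. *Atf5* overlaps *Nup62* by 571 bases and *Il4i1b* by 289 bases on the opposite strand, and *Ddit3* overlaps *Mbd6* by 77 bases and *Mars1* by 71 bases on the opposite strand. Whether strand was used in counting is not given in the sources used here, so reads in these ends cannot be assigned with certainty.

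The values are FPKM, fragment counts normalized to transcript length and to the mapped fragments of the library, and depth is unknown, since the table holds no counts. Library sums were 477079 to 491459 FPKM on day 0 and 547355 to 563586 FPKM on day 3. The targeted gene, listed as *Slc16a1*, had 22.6 and 22.9 FPKM in control and 10.8, 9.81 and 9.50 FPKM in *Mct1*-deficient libraries on day 3 (log2 fold change -1.11, SE 0.0712, adjusted p = 9.07e-06, limma), and 4.33 and 3.80 against 3.71 and 4.06 FPKM on day 0. The day 0 difference of *Slc16a1* was -0.05 on the log2 scale and was not called, so loss of its transcript was not seen in the day 0 libraries. B cell markers summed to 4683 to 5108 FPKM on day 0 and to 2698 to 2837 FPKM on day 3. The day 0 libraries also held RNA of other cells. Myeloid markers (10 genes) summed to 1146 to 1350 FPKM in control and 1251 to 2019 FPKM in *Mct1*-deficient libraries on day 0, against 96.7 to 103 and 64.4 to 66.6 FPKM on day 3, and 8 of the 10 were at least 10-fold higher on day 0. On day 3 *S100a9*, *Mpo* and *Elane* were listed at 0 in at least 1 *Mct1*-deficient library. The summed markers of erythroid cells were 86.7 to 157 FPKM on day 0 and 0.07 to 0.56 FPKM on day 3, those of T cells 26.7 to 30.1 and 0.77 to 1.37 FPKM, and those of NK cells 38.6 to 49.1 and 5.91 to 7.65 FPKM. The Y-linked gene *Ddx3y* had 0.24 and 0.02 FPKM in the day 0 control libraries, 31.1 and 0.20 FPKM in the day 0 *Mct1*-deficient libraries and 14.7 to 16.9 FPKM in all day 3 libraries. In the control genotype, sex and activation cannot be told apart. On day 0 only *Mct1*-deficient replicate 1 had *Ddx3y* at a high level. The day 0 genotype comparison and the interaction therefore also partly mix sex with genotype. In bulk samples, fewer cells of a type and less RNA per cell cannot be told apart either.

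Activation raised 7 of the 10 genes in both genotypes, led by *Asns*, *Chac1*, *Atf5*, *Trib3* and *Atf3*, while *Cebpb* fell in both and *Ddit3* and *Ddit4* moved less. A gene counted as called when its adjusted p was under 0.05 and its log2 fold change exceeded 0.5 in either direction, a 1.41-fold change, on the log2(FPKM + 1) scale, which understates the change of low genes. In control B cells 7 genes were higher and 1 was lower, and by the same rule 24.8% of the 10823 tested genes were higher and 33% lower. *Mct1*-deficient B cells had 7 higher and 2 lower, against 23.4% higher and 33.2% lower of all genes. The median log2 fold change of the 10 genes was 2.89 in control and 2.51 in *Mct1*-deficient B cells, and that of all tested genes was -0.12 and -0.14.

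**Figure D1:**
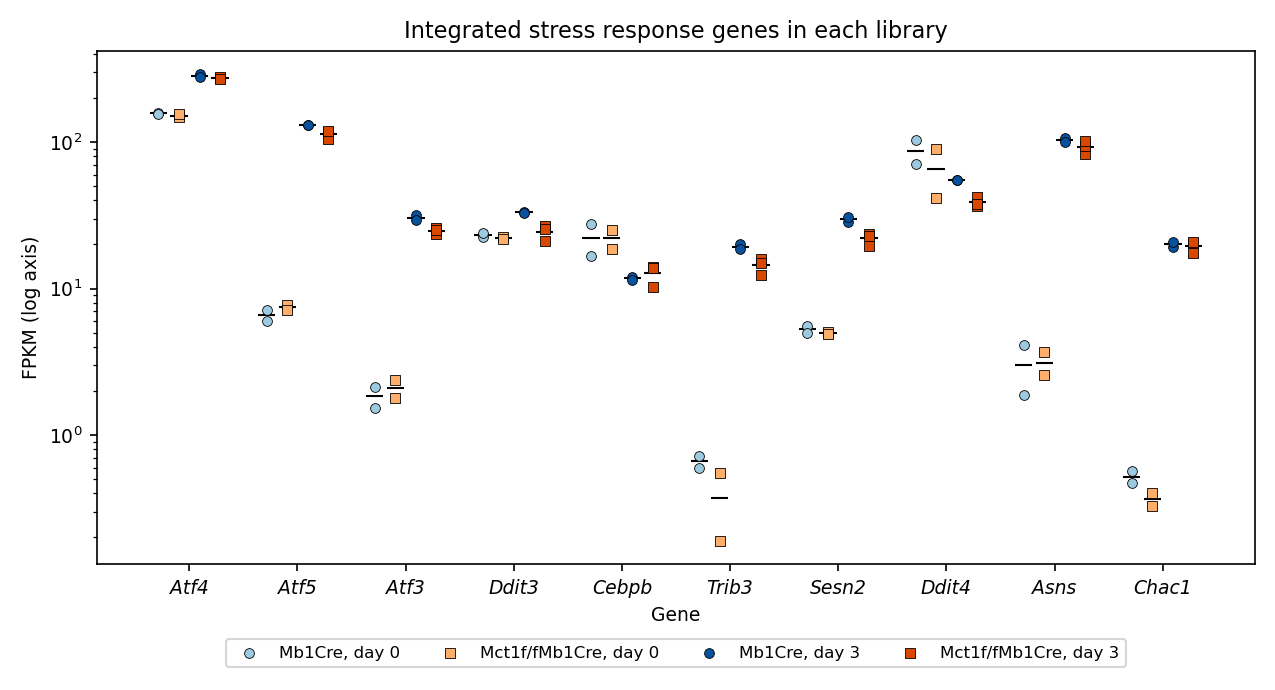
FPKM of the 10 genes (log axis) in each of the 9 libraries, with 1 point per library, colour and shape for genotype and day, and a line at each group mean. On day 3 *Asns*, *Atf5*, *Atf3*, *Trib3*, *Chac1* and *Sesn2* lie far above day 0 in both genotypes, whereas *Cebpb* lies below and the day 0 points of *Ddit4* are spread from 41.2 to 104 FPKM.

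*Atf4*, the effector, was already abundant in naive cells. It had 159 and 155 FPKM in control and 148 and 155 FPKM in *Mct1*-deficient libraries on day 0, rank 375 of all genes in control. On day 3 it had 291 and 276 FPKM in control and 274, 279 and 270 FPKM in *Mct1*-deficient libraries, rank 227 in control. The groups of the 2 days did not overlap, and the rise was 1.81-fold in both genotypes (log2 fold change 0.85 with SE 0.0443 in control, adjusted p = 9.07e-09, and 0.85 with SE 0.0405 in *Mct1*-deficient cells, adjusted p = 3.81e-09, limma).

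*Atf5*, a bZIP factor whose mRNA is translated under stress in a manner like that of *Atf4*, and *Atf3*, a stress-inducible bZIP factor, rose far more. *Atf5* had 7.19 and 5.96 FPKM in control and 7.68 and 7.19 FPKM in *Mct1*-deficient libraries on day 0. Activated cells had 131 and 130 FPKM in control and 117, 105 and 118 FPKM in *Mct1*-deficient libraries. This was a 19.8-fold rise in control cells (log2 fold change 4.12, SE 0.0786, adjusted p = 5.88e-12) and a 15.3-fold rise in *Mct1*-deficient cells (3.76, SE 0.0717, adjusted p = 5.21e-12). Of its neighbours on the other strand, *Nup62* had 21.2 to 22.7 FPKM on day 0 and 93.7 to 99.5 FPKM on day 3, and *Il4i1b* at most 0.97 FPKM on day 0 and 2.38 to 5.79 FPKM on day 3, and their part in the value of *Atf5* was not tested. *Atf3* had 1.54 and 2.14 FPKM in control and 2.38 and 1.80 FPKM in *Mct1*-deficient libraries on day 0. Activated cells had 31.9 and 29.2 FPKM in control and 23.6, 25.7 and 25.3 FPKM in *Mct1*-deficient libraries, a 16.6-fold and an 11.9-fold rise (log2 fold change 3.48 and 3.07).

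*Ddit3*, which encodes the partner factor CHOP, changed little. On day 0 it had 22.7 and 23.9 FPKM in control and 22.5 and 21.8 FPKM in *Mct1*-deficient libraries. On day 3 it had 33.5 and 32.7 FPKM in control, above all other libraries, and 21.0, 26.8 and 25.4 FPKM in *Mct1*-deficient libraries, a range that included every day 0 value. In control cells the log2 fold change of 0.49 (SE 0.0907, adjusted p = 3.81e-04, limma) missed the fold limit, and it passed under median-of-ratios scaling (0.70), quantile normalization (0.50), a pseudocount of 0.1 (0.51) and without control replicate 2 of day 0 (0.53) or of day 3 (0.51). In *Mct1*-deficient cells it was 0.13 (adjusted p = 0.176), and -0.046 with libraries scaled to the same total. Of its neighbours on the other strand, *Mbd6* had 39.5 to 42.8 FPKM on day 0 and 14.3 to 15.8 FPKM on day 3, and *Mars1* 19.6 to 21.8 and 56.2 to 58.1 FPKM, and their part in the value of *Ddit3* was not tested.

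*Cebpb*, a C/EBP factor that dimerizes with ATF4 and is high in myeloid cells, went the other way. It had 16.6 and 27.6 FPKM in control and 25.2 and 18.8 FPKM in *Mct1*-deficient libraries on day 0, and 12.1 and 11.4 against 10.2, 14.1 and 13.9 FPKM on day 3. Each day 0 library was above each day 3 library. It fell by 0.82 on the log2 scale in control cells (adjusted p = 3.67e-03, limma) and by 0.74 in *Mct1*-deficient cells (adjusted p = 3.81e-03). Without control replicate 2 of day 0 the difference in control cells was -0.47, below the fold limit. The myeloid markers moved the same way, as given above, and so did *Cebpa*, another C/EBP factor of myeloid cells, from 7.60 to 11.8 FPKM on day 0 to 0.04 to 0.15 FPKM on day 3; the part of myeloid RNA in the change of *Cebpb* was not tested.

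The feedback gene *Trib3*, a pseudokinase that restrains ATF4 and CHOP, was barely listed in naive cells, at 0.72 and 0.60 FPKM in control and 0.19 and 0.55 FPKM in *Mct1*-deficient libraries. After activation it had 20.1 and 18.6 FPKM in control and 12.5, 15.8 and 14.8 FPKM in *Mct1*-deficient libraries (log2 fold change 3.61 and 3.50). *Sesn2*, a leucine sensor that holds mTORC1 back, had 5.53 and 4.98 FPKM in control and 5.07 and 4.90 FPKM in *Mct1*-deficient libraries on day 0. After activation it had 28.5 and 30.9 FPKM in control and 19.6, 23.7 and 23.0 FPKM in *Mct1*-deficient libraries, a 5.65-fold and a 4.43-fold rise (log2 fold change 2.30 and 1.94). Both genes separated the days without overlap.

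*Ddit4* (REDD1), the other inhibitor of mTORC1 among the 10 genes, varied more between day 0 libraries than any of the others on the FPKM scale. It had 70.7 and 104 FPKM in control and 89.7 and 41.2 FPKM in *Mct1*-deficient libraries on day 0. In activated cells it had 55.2 and 55.0 FPKM in control and 36.6, 42.4 and 37.8 FPKM in *Mct1*-deficient libraries. In control cells the log2 fold change of -0.63 did not pass (adjusted p = 0.0529, limma), and over all settings tried its adjusted p ranged from 0.00138 to 0.312. It passed, for example, with only the control groups in the fit (adjusted p = 0.00480, limma) and with libraries scaled to the same total (-0.83), and the value was -0.90 without control replicate 1 and -0.35 without control replicate 2 of day 0. In *Mct1*-deficient cells, where the groups overlapped, it was -0.64 (adjusted p = 0.0345), and this call was lost without *Mct1*-deficient replicate 1 of day 0 (-0.08, adjusted p = 0.640) and without replicate 1 (-0.59) or replicate 3 (-0.62) of day 3.

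The metabolic targets *Asns* (asparagine synthetase) and *Chac1* (which degrades glutathione) had the largest ratios of mean FPKM in control cells. *Asns* had 4.12 and 1.89 FPKM in control and 2.58 and 3.66 FPKM in *Mct1*-deficient libraries on day 0. In activated cells it had 106 and 100 FPKM in control and 82.7, 94.0 and 102 FPKM in *Mct1*-deficient libraries. The log2 fold change was 4.76 (SE 0.214, adjusted p = 2.60e-09) in control and 4.52 (SE 0.195, adjusted p = 1.75e-09) in *Mct1*-deficient cells, a 34.4-fold and a 29.7-fold rise in mean FPKM. *Chac1* had 0.47 and 0.57 FPKM in control and 0.33 and 0.40 FPKM in *Mct1*-deficient libraries on day 0, and 19.3 and 20.8 against 17.4, 20.3 and 20.9 FPKM on day 3 (log2 fold change 3.79 and 3.91, a 38.5-fold and a 53.5-fold rise). The larger ratio in *Mct1*-deficient cells rests on a low day 0 mean (0.365 against 0.52 FPKM in control), since the day 3 means were 19.5 and 20.0 FPKM. The genotypes overlapped on day 3 in both genes.

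**Figure D2:**
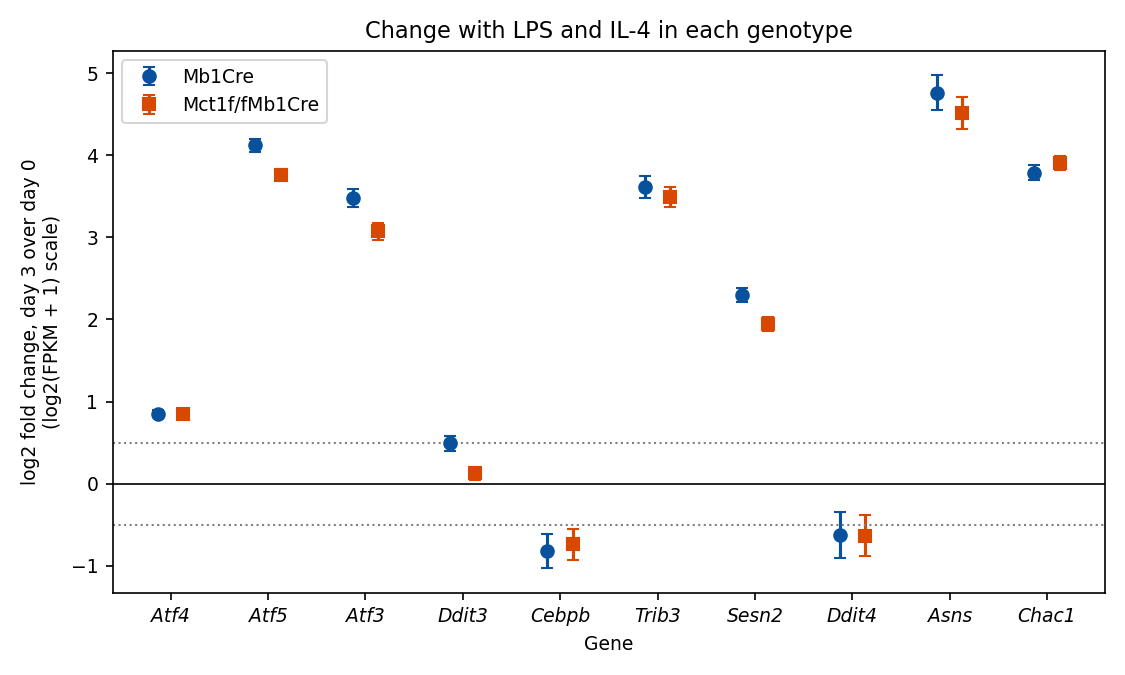
The log2 fold change of day 3 over day 0 on the log2(FPKM + 1) scale for the 10 genes in each genotype, with points for the limma estimate, bars for its SE and dotted lines at the fold limit of 0.5. Of the genotype pairs, *Atf4* is at 0.85 in both, and *Atf5*, *Atf3*, *Ddit3* and *Sesn2* lie 0.35 to 0.41 lower in *Mct1f/fMb1Cre* cells, differences that did not pass the test of the interaction.

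The order of the levels changed with activation. In naive control cells *Atf4* was followed by *Ddit4*, then by *Ddit3* and *Cebpb*, whose ranges overlapped, then by *Atf5*, *Sesn2*, *Asns* and *Atf3*, the last pair overlapping, and by *Trib3* and *Chac1*. In activated control cells *Atf4* was followed by *Atf5*, *Asns*, *Ddit4* and *Ddit3* without overlap between neighbours, then by the overlapping pairs *Atf3* and *Sesn2*, and *Chac1* and *Trib3*, with *Cebpb* lowest. In activated *Mct1*-deficient cells the first 4 places were the same, the ranges of *Atf3*, *Ddit3*, *Sesn2* and *Chac1* overlapped in turn, and so did those of *Trib3* and *Cebpb*.

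The other arms of the pathway were read from lists of genes. All 10 amino acid synthesis enzymes and all 13 aminoacyl-tRNA synthetases and tRNA exporters tested rose in both genotypes, with median log2 fold changes in control of 2.29 and 1.79. *Cth*, which makes cysteine from cystathionine, had 0.16 and 0.19 FPKM in day 0 control and 31.4 and 30.2 FPKM in day 3 control libraries. *Pycr1*, an enzyme of proline synthesis, rose by 3.37, the alanyl-tRNA synthetase gene *Aars* by 2.29 and the glycyl-tRNA synthetase gene *Gars* by 2.13 on the log2 scale. Of 8 tested amino acid transporters, 6 rose and 1 fell in control cells. The cationic amino acid transporter gene *Slc7a3* rose by 4.40 from 0.12 and 0.07 FPKM, the glycine transporter gene *Slc6a9* rose by 3.41, and *Slc38a2*, a glutamine transporter gene, fell by 0.59, a call lost with median-of-ratios scaling. In *Mct1*-deficient cells 6 rose and 0 fell; by unadjusted p under 0.05, all 8 differed.

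Of 19 genes for eIF2, its kinases and their regulators, 9 rose and 2 fell in each genotype. In control cells the eIF2 subunit genes *Eif2s2* (log2 fold change 1.89) and *Eif2s1* (1.39) rose most. *Eif2ak3*, which encodes the endoplasmic reticulum kinase PERK, fell from 29.1 and 28.6 to 12.9 and 13.1 FPKM (-1.10), and *Impact*, an inhibitor of the kinase GCN2, fell from 9.02 and 9.47 to 6.30 and 6.17 FPKM, a call lost with a pseudocount of 5, with median-of-ratios scaling and with quantile normalization. The paralogs of the 10 genes did not rise with them. Of 9 tested, 1 rose (*Chac2*, 0.60) and 7 fell in control cells, with *Cebpa* at -3.14 and *Sesn1*, a sestrin known as a p53 and FoxO target, at -3.11, from 72.7 and 94.0 to 8.31 and 9.06 FPKM. Of 8 tested other targets of ATF4 or CHOP, 6 rose and 1 fell in control cells, led by *Eif4ebp1*, an inhibitor of cap-dependent translation (2.03), and *Bbc3*, the pro-apoptotic PUMA (1.76), while the autophagy gene *Map1lc3b* fell by 0.80. The endoplasmic reticulum stress genes of the ATF6 and XBP1 arms had 7 of 11 higher and 0 lower in control cells (8 with an unadjusted p under 0.05, limma), with the chaperone cofactor gene *Sdf2l1* at 2.11 and *Xbp1* at 2.00.

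Early response and heat shock genes known to rise during cell isolation were read beside these. They summed to 877 to 975 FPKM in control and 800 to 818 FPKM in *Mct1*-deficient libraries on day 0, and to 312 to 319 and 252 to 275 FPKM on day 3, and 6 of 9 tested fell in control cells, among them *Fos* (-4.47) and *Fosb* (-3.14). Their part in the day 0 values of *Atf3*, *Cebpb* and *Ddit4* was not tested.

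On day 3 the 10 genes were compared between the genotypes, which asks whether loss of the pyruvate and lactate transporter MCT1 changed the stress response of activated B cells. *Ddit3*, *Sesn2* and *Trib3* were lower in *Mct1*-deficient cells by about the same amount, whereas *Atf4*, *Chac1*, *Asns* and *Cebpb* differed by less than the spread between libraries. None of the 10 passed both the adjusted p and the fold limit in limma, and 5 had an unadjusted p under 0.05. Of all tested genes 2.42% were called. With no limit on the fold change 3 of the 10 were lower at an adjusted p under 0.05, against 9.21% of all tested genes lower by that rule. The median log2 fold change was -0.24 for the 10 genes, 9 of them negative, and -0.01 for all genes. The early response and heat shock genes also had mostly negative values, with a median of -0.19 and 8 of 9 negative. None was called in limma (3 with an unadjusted p under 0.05), and 2 were lower with no fold limit, *Junb* (-0.32, adjusted p = 2.46e-03) and *Zfp36* (-0.21, adjusted p = 0.0203), both named after their values were seen. This list was also lower on day 0, with a median of -0.23, 9 of 9 negative, 1 called and 5 with an unadjusted p under 0.05 (limma). *Junb* was at 79.6% of the control mean on day 0 and 79.9% on day 3. Their part in the day 3 values of the 10 genes was not tested.

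*Ddit3* was at 73.7% of the control mean (log2 fold change -0.43, SE 0.0828, adjusted p = 5.80e-03, limma). *Sesn2* was at 74.4% (-0.41, SE 0.0798, adjusted p = 6.17e-03) and *Trib3* also at 74.4% (-0.41, SE 0.120, adjusted p = 0.0435). In each the highest *Mct1*-deficient library was below the lowest control library, with 26.8 against 32.7 FPKM in *Ddit3*, 23.7 against 28.5 FPKM in *Sesn2* and 15.8 against 18.6 FPKM in *Trib3*. The same held for *Atf3*, *Atf5* and *Ddit4*, so that 6 of the 10 genes had all 3 *Mct1*-deficient libraries below both controls and 0 had them above, while 26.1% of all tested genes had them below. *Atf3* (-0.28, SE 0.101, adjusted p = 0.0856), *Atf5* (-0.20, SE 0.0717, adjusted p = 0.0903) and *Ddit4* (-0.49, SE 0.252, adjusted p = 0.226) did not pass. *Mct1*-deficient replicate 1 was the lowest of its group in *Ddit3*, *Sesn2*, *Trib3*, *Atf3*, *Ddit4*, *Asns*, *Chac1* and *Cebpb*, and without it *Ddit3* and *Sesn2* were at -0.33 and passed with no fold limit, while *Trib3* was at -0.32 and did not (adjusted p = 0.120, limma). Without replicate 2 of that group *Ddit3* passed both the adjusted p and the fold limit. *Trib3* also missed the adjusted p without replicate 3 of that group, with a pseudocount of 0.1 and with no filter. It missed it too with quantile normalization, with the replicate block and with no trend. Its adjusted p over all settings ranged from 9.51e-03 to 0.314 (limma).

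*Atf4* itself was at 96.6% of control on day 3 (-0.05, SE 0.0405, adjusted p = 0.466), *Asns* at 89.8% (-0.16, SE 0.195, adjusted p = 0.659), *Chac1* at 97.6% (-0.04, SE 0.0840, adjusted p = 0.836) and *Cebpb* at 108% (0.10, SE 0.192, adjusted p = 0.806). These differences were within their SE or little above it, which does not show that the levels are equal. The count with no fold limit rested on the 2 control libraries of day 3. Without control replicate 1 only *Sesn2* passed, and without control replicate 2 only *Ddit3* did. When either day 0 control library was left out, 5 passed (*Atf3* and *Atf5* in addition), and with only the day 3 groups in the fit 6 did.

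**Figure D3:**
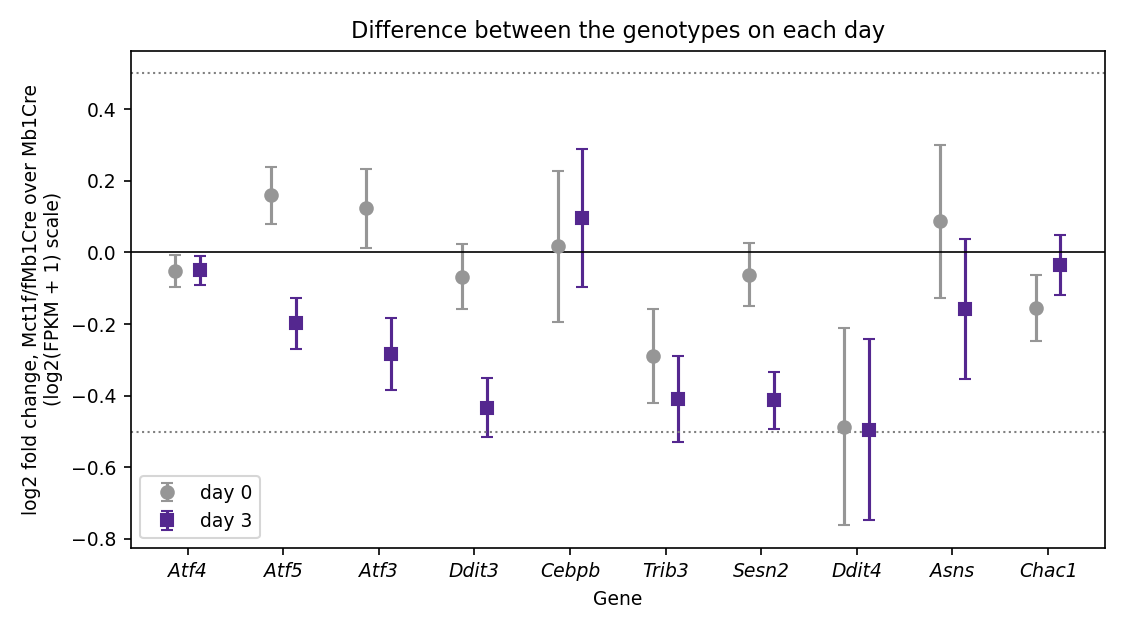
The log2 fold change of *Mct1f/fMb1Cre* over *Mb1Cre* B cells on the log2(FPKM + 1) scale on day 0 (grey circles) and day 3 (purple squares), with limma estimates, SE bars and dotted lines at the fold limit of 0.5. On day 3, 9 of the 10 genes lie below 0, *Ddit3*, *Sesn2* and *Trib3* near -0.4 with short bars and *Ddit4* near -0.5 with a long bar.

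On day 0 the genotypes were not told apart in any of the 10 genes. None was called in limma, 0 had an unadjusted p under 0.05, and 0.277% of all tested genes were called. The widest differences were those of *Ddit4* (-0.49, SE 0.276, adjusted p = 0.539) and *Trib3* (-0.29, adjusted p = 0.429), and the others lay between -0.15 and 0.16. Without *Mct1*-deficient replicate 1, the day 0 library with high *Ddx3y*, the difference of *Ddit4* was -1.04. That compares both controls with the single library of 41.2 FPKM, whose spread is not known.

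The interaction asks whether the genotype difference changed with the day. None of the 10 genes was called in limma, 4 had an unadjusted p under 0.05, and 3.23% of all tested genes were called. These 4 were *Atf5* (-0.36, SE 0.106, adjusted p = 0.0617), *Ddit3* (-0.37, SE 0.123, adjusted p = 0.0915), *Sesn2* (-0.35, SE 0.118, adjusted p = 0.0927) and *Atf3* (-0.41, SE 0.150, adjusted p = 0.119). In FPKM, the day 3 minus day 0 difference of *Mct1*-deficient cells was 22.7% of that of control cells in *Ddit3*, 70.1% in *Sesn2*, 75.0% in *Trib3*, 79.5% in *Atf3*, 85.8% in *Atf5*, 89.4% in *Asns*, 96.7% in *Atf4* and 98.4% in *Chac1*. The value of *Ddit3* rested on single libraries, at 39.98% without *Mct1*-deficient replicate 1 and 10.2% without replicate 2 of day 3. Without control replicate 2 of day 0 the interaction of *Atf3* was called (-0.56, adjusted p = 0.0339). That of *Trib3*, -0.12, became 0.37 with a pseudocount of 0.1.

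Among the other tested genes of the pathway, the genotypes differed most on day 3 in *Nupr1*, *Cth* and *Bcl2l11*. *Nupr1*, a small stress-induced nuclear protein, had 5.06 and 5.75 FPKM in control and 5.85 and 5.73 FPKM in *Mct1*-deficient libraries on day 0. On day 3 it had 11.1 and 11.5 FPKM in control and 3.91, 3.81 and 3.80 FPKM in *Mct1*-deficient libraries (log2 fold change -1.35, SE 0.0637, adjusted p = 1.56e-06, limma). It rose with activation in control cells (0.95, adjusted p = 1.77e-07), while in *Mct1*-deficient cells its log2 fold change was -0.49 (adjusted p = 2.30e-05), just inside the fold limit, and the interaction was -1.44 (adjusted p = 4.65e-05).

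*Bcl2l11*, which encodes the pro-apoptotic protein BIM, had 17.4 to 19.5 FPKM on day 0. On day 3 it had 46.6 and 48.1 FPKM in control and 31.1, 29.2 and 29.98 FPKM in *Mct1*-deficient libraries (log2 fold change -0.64, SE 0.0541, adjusted p = 4.32e-05, interaction -0.69). In the list of other ATF4 or CHOP targets, all 8 tested genes had their 3 *Mct1*-deficient libraries below both controls on day 3. The background was 26.1%. Of the 8 genes, 2 were called lower and 0 higher. With no fold limit 6 were lower, among them *Ero1a*, an oxidase of the endoplasmic reticulum (-0.40), and *Tnfrsf10b*, a death receptor (-0.38). Without control replicate 1 of day 3, 3 of the 8 were lower by that rule. Their median was -0.31. On day 0 the same 8 genes had a median of 0.04, and 0 were called (1 with an unadjusted p under 0.05, limma). This list was chosen with earlier results of these data known, so it is not independent of the 10 genes. The synthesis, transporter and synthetase lists also hold genes of the kinds that ATF4 switches on. There, 4 of 10, 3 of 8 and 5 of 13 tested genes had all *Mct1*-deficient libraries below both controls on day 3, and 1, 2 and 3 had them above.

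*Cth* had 15.5, 17.2 and 16.8 FPKM in *Mct1*-deficient libraries on day 3, below the controls given above, and was the only gene called by genotype among the 10 amino acid synthesis enzymes (log2 fold change -0.86, SE 0.0681, adjusted p = 3.00e-05, interaction -0.80, which did not pass with a pseudocount of 0.1). The serine synthesis genes *Phgdh*, with 220 and 210 FPKM in control against 208, 226 and 234 FPKM in *Mct1*-deficient libraries, and *Psat1*, with 151 and 148 against 152, 163 and 163 FPKM, were not lower, and the list had a median of -0.04. In 4 of the 10 enzymes all *Mct1*-deficient libraries were below both controls and in 1 all were above. Of all tested genes 26.1% had them below, and the share above was not determined. *Psph*, the last enzyme of serine synthesis, was lower with no fold limit (-0.25, adjusted p = 0.0280), and *Pycr1* was at 81.9% of control (-0.28, adjusted p = 0.117). Among the transporters none was called on day 3 (5 with an unadjusted p under 0.05, limma). *Slc7a3* had 21.6 and 22.8 FPKM in control and 15.3, 17.6 and 17.9 FPKM in *Mct1*-deficient libraries on day 3 (-0.37, inside the fold limit). On day 0 it had 0.12 and 0.07 FPKM in control and 0.20 and 0.33 FPKM in *Mct1*-deficient libraries (0.21). Its interaction of -0.57 was called (adjusted p = 0.0167, limma) and rests in part on these low day 0 values. The call was lost when either control library of day 3 was left out.

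Of the aminoacyl-tRNA synthetases and tRNA exporters 0 of 13 were called on day 3 in limma (3 with an unadjusted p under 0.05), with a median of -0.01. Their *Mct1*-deficient libraries were all below both controls in 5 genes and all above in 3, beside 26.1% of all tested genes below and an undetermined share above. The eIF2 list also had 0 called (5 with an unadjusted p under 0.05). *Ppp1r15a*, which encodes the eIF2 phosphatase subunit GADD34 and is a target of CHOP, was lower with no fold limit (-0.33, adjusted p = 2.08e-03), but its day 0 values of 23.3 and 23.5 FPKM in control and 19.8 and 20.8 FPKM in *Mct1*-deficient libraries were also apart. Among the endoplasmic reticulum stress genes 0 of 11 were called (3 with an unadjusted p under 0.05), and the chaperone genes *Hsp90b1* (-0.24) and *Hspa5* (-0.20) were lower with no fold limit. Of the paralogs 0 of 9 were called (2 with an unadjusted p under 0.05), and *Cebpg*, the usual dimer partner of ATF4, was lower with no fold limit (-0.30, adjusted p = 5.63e-03), at 15.1 and 14.9 against 12.6, 12.0 and 11.3 FPKM. *Ppp1r15a*, *Ero1a*, *Tnfrsf10b*, *Hsp90b1*, *Hspa5*, *Cebpg*, *Phgdh*, *Psat1* and *Psph* were chosen after their values were seen.

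**Figure D4:**
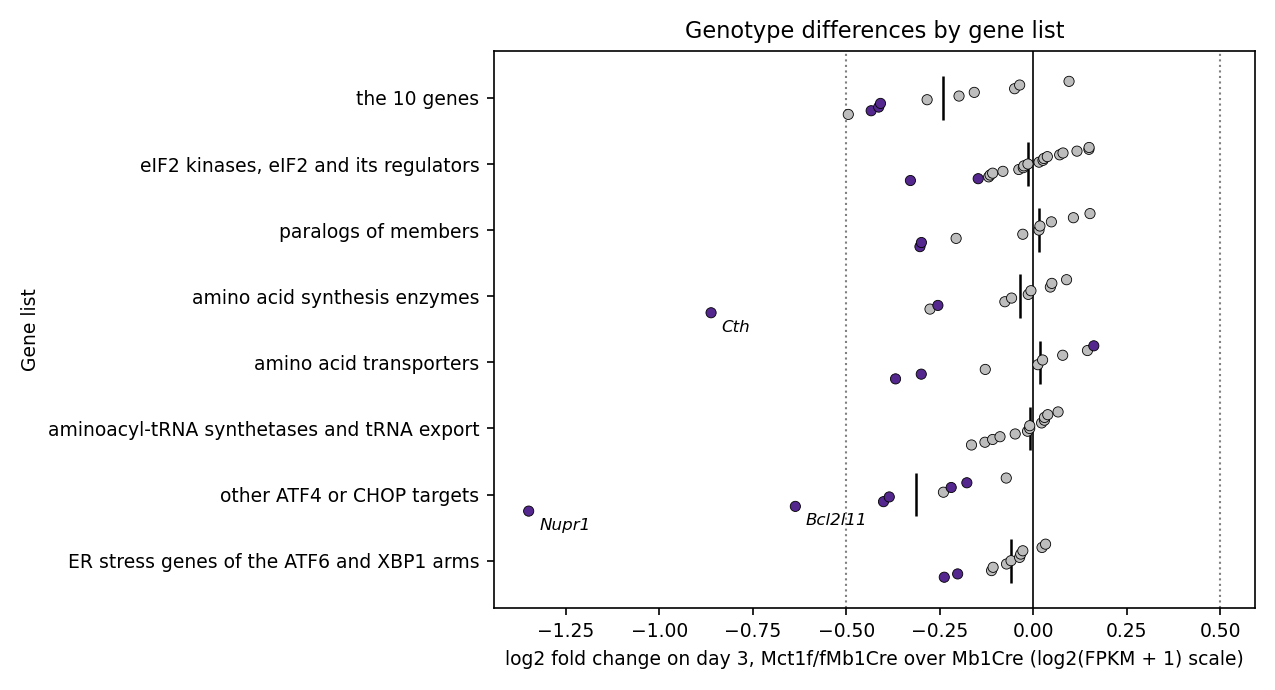
The log2 fold change of *Mct1f/fMb1Cre* over *Mb1Cre* B cells on day 3 for each tested gene of 8 lists, with purple points for an adjusted p under 0.05 with no fold limit, black lines at the list medians, dotted lines at the fold limit and names for called genes. The medians of the 10 genes (-0.24) and of the other ATF4 or CHOP targets (-0.31) lie to the left of 0, and those of the other lists lie near 0.

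**Figure D5:**
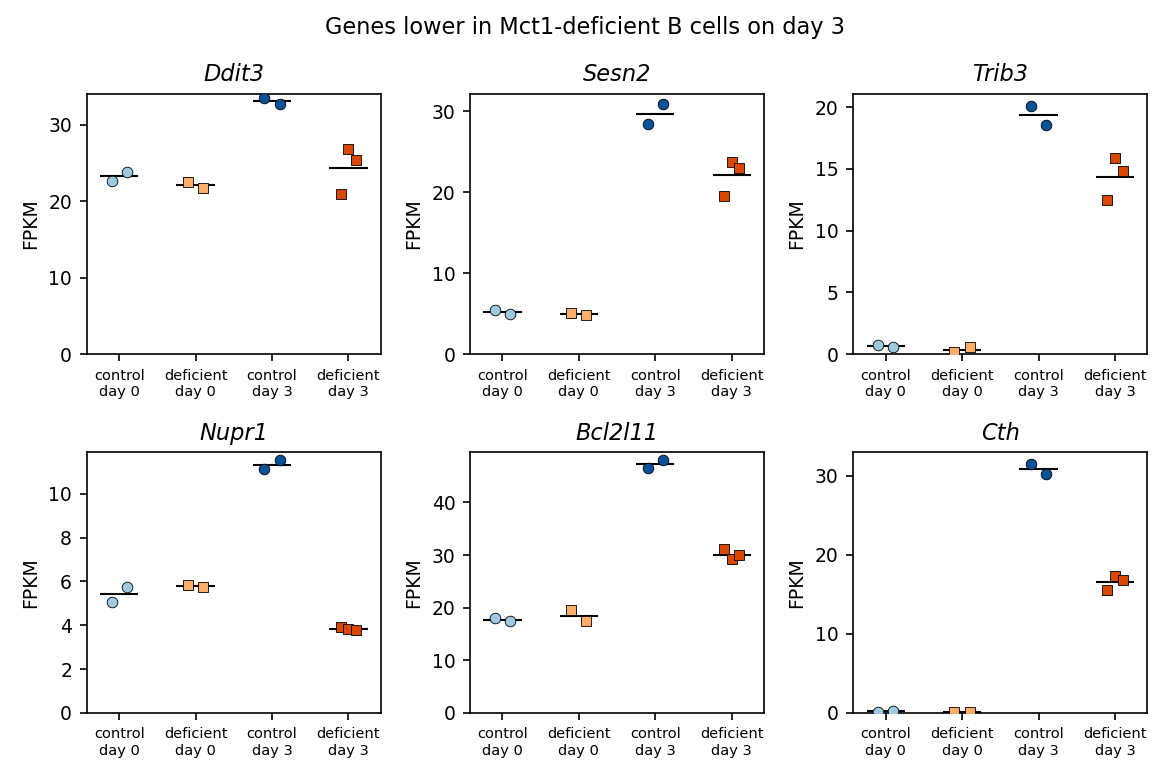
FPKM (linear axis from 0) of *Ddit3*, *Sesn2*, *Trib3*, *Nupr1*, *Bcl2l11* and *Cth* in each library, with lines at group means, for control (*Mb1Cre*) and deficient (*Mct1f/fMb1Cre*) B cells. In each gene the day 3 deficient libraries lie below both day 3 controls, and in *Nupr1* they also lie below all day 0 libraries.

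On day 3 every library had *Ddx3y* transcripts, and the summed myeloid markers were lower in *Mct1*-deficient libraries, with *Ly6c2* (85.6 and 81.0 against 39.9, 41.3 and 40.4 FPKM) as the main part of the sum. It was the only one of 10 markers with all *Mct1*-deficient libraries below both controls, while 5 had them above. The share of all tested genes was 26.1% below and was not determined above. Of the 5, *Lyz2* (11.5 and 10.0 against 16.8, 17.6 and 20.4 FPKM) and *Adgre1* (0.44 and 0.58 against 1.5, 1.37 and 1.39 FPKM) were called higher. The part of these markers in the day 3 differences was not tested.

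Likeness of pattern over the 9 libraries was measured as Pearson r of log2(FPKM + 1). High values are common here, since 2678 of 10813 genes had an r above 0.95 with *Atf4*, and the libraries share the difference between the days. *Ddit3* had only 4 genes above 0.95, and the most like it were *Dusp5* (0.9694), *Pgs1* (0.9631), *Sema7a* (0.9591), *Atmin* (0.9522) and *Cox6a2* (0.9467). These are descriptions over 9 libraries of 4 groups and were not tested.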

How the data were processed

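The authors deposited 1 FPKM value per gene and library, rounded to 2 decimals. The sequencing institute assembled and analysed the libraries, and the submitters' processing notes list Bowtie2, GRCm38 and mm10; the counting tool, the annotation and the use of strand are not given in the sources used here. The labels name a phenol-based reagent for RNA extraction and the paper's methods a column kit. Read counts could not be recovered, since the smallest values above 0 (median 0.03 FPKM) were too close to the rounding step (0.01), so depth and counting error are unknown and precision rests on the 2 or 3 libraries per group. Nothing in the labels says that replicates came from separate mice, so p-values measure only the spread between these libraries, which may be technical. No 2 libraries shared more than 3.43% of their values.

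Groups were taken from the sample titles. Log2(FPKM + 1) values were fitted for 10823 genes, those whose mean over 9 libraries reached 1 FPKM, in limma 3.58.1 (R 4.3.3) with 1 mean per group and a moderated variance with a trend. Benjamini-Hochberg adjustment ran over all tested genes, and calls needed an adjusted p under 0.05 with a log2 fold change beyond 0.5 in either direction. The comparisons were day 3 against day 0 in each genotype, the genotypes on each day, and their interaction. The procedure was tested on simulated data. As alternatives, the pseudocount was 0.1 or 5, the filter was dropped or set to a mean of at least 5 FPKM, and other runs used other scalings (common total, median-of-ratios, quantile), only the groups compared, a replicate block, no trend, no fold limit or a log2 limit of 1, and each library left out. A crossed replicate block for the control libraries was added after the data were seen.

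The 10 genes and the gene lists were chosen with earlier results of these data known. The genes named are the 10 genes, *Slc16a1*, from each other list of the pathway up to 2 called genes per direction, those that changed most, on activation of control cells and by genotype on day 3, every listed gene called on day 0 or for the interaction, and the 5 genes most like *Atf4* and *Ddit3*, of which those for *Atf4* are not reported here. Marker and sex genes are given by sums and ranges, and genes named outside this rule are stated as such. Gene positions and promoter windows came from RefSeq (GRCm38.p6), in which all 10 genes were matched. Figures were drawn with matplotlib 3.10.9 in Python 3.11.15.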

Additional observations from a re-analysis of the deposited data

Results flagged for a closer look

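By the interaction term of limma, the genotype difference on day 3 departed from that on day 0 in 6 genes. They were counted over the targeted gene and the gene lists, without the marker and sex lists. Besides the targeted gene, these lists held 10, 19, 9, 10, 8, 13, 8, 11 and 9 tested genes. Of all 10823 tested genes 3.23% were called for the interaction, and so were 3 myeloid markers and 1 erythroid marker. The interaction was -1.06 on the log2 scale for the targeted gene *Slc16a1*, -1.44 for *Nupr1*, -0.80 for *Cth*, -0.69 for *Bcl2l11*, -0.57 for *Slc7a3* and 0.89 for *Fosb*. *Fosb*, an early response gene read as a sign of cell handling, was lower in *Mct1*-deficient cells on day 0 (8.33 and 7.98 against 3.24 and 4.65 FPKM, log2 fold change -0.90, adjusted p = 0.0118, limma) and had at most 0.04 FPKM in every day 3 library. Its day 0 call was lost with a pseudocount of 0.1 (-1.05, adjusted p = 0.177), with no filter, with only the day 0 groups in the fit and without control replicate 1 of day 0. None of the 10 genes was among these 6.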

How the results depend on the processing

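The counts of the 10 genes called were 8 to 9 for activation in control and in *Mct1*-deficient cells when 1 library was left out, and 0 to 1 for the interaction and for the genotype comparison of either day. With no fold limit the day 3 count was 3, and it ranged from 1 to 6 over the other settings. A log2 limit of 1 lost *Atf4* and *Cebpb* in both genotypes and *Ddit4* in *Mct1*-deficient cells. Directions turned only in differences that were not called, and the cause was not tested. The interaction of *Trib3* was 0.37 with a pseudocount of 0.1, that of *Atf4* -0.021 with quantile normalization, and that of *Ddit4* 4.2e-04 with a pseudocount of 5, 0.017 with a common total, 0.039 with quantile normalization and 0.012 with the replicate block. With a common total *Ddit3* had -0.046 on activation of *Mct1*-deficient cells. With 1 library left out the day 0 difference ranged from -0.33 to 0.37 in *Cebpb*, -0.13 to 0.0011 in *Sesn2*, -0.030 to 0.28 in *Atf3*, -0.33 to 0.50 in *Asns* and -1.04 to 0.066 in *Ddit4*. The interaction then ranged from -0.036 to 0.039 in *Atf4*, -0.56 to 0.54 in *Ddit4*, -0.27 to 0.43 in *Cebpb*, -0.66 to 0.17 in *Asns* and -0.31 to 0.071 in *Trib3*, and the day 3 difference of *Chac1* from -0.087 to 0.042.

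Same-numbered libraries did not deviate together (r = -0.122 to 0.0642), so the numbers pair nothing by the data. The replicate block lost the call of *Ddit4* on activation of *Mct1*-deficient cells (-0.62, adjusted p = 0.0858, limma) and left 2 of the 10 genes lower on day 3 with no fold limit, and it changed no other call of the 10 genes. The call of *Ddit4* in *Mct1*-deficient cells was also lost with no filter (adjusted p = 0.117), with no trend (0.0559) and with median-of-ratios scaling (-0.42, adjusted p = 0.152). The block with crossed numbers, chosen after seeing the data, called 9 of the 10 genes on activation of control cells. Scaling moved the median of all genes on activation of control cells from -0.12 to -0.31 (common total), 0.07 (median-of-ratios) and 0.02 (quantile), and the share of calls that were higher from 42.9% to 31.8%, 55.7% and 51.6%. Of all genes, 262 were called by genotype on day 3, and 421 with a pseudocount of 0.1, 120 with a pseudocount of 5, 54 with a limit of 1 and 1650 with none. On day 0, 30 were called, and 2 with only the day 0 groups in the fit.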

Other observations

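Some known targets were too low for the test. *Stc2*, which encodes the secreted glycoprotein stanniocalcin 2 and is an ATF4 target, had at most 0.03 FPKM on day 0, and 1.41 and 1.07 FPKM in control against 0.34, 0.23 and 0.14 FPKM in *Mct1*-deficient libraries on day 3. *Vldlr*, a lipoprotein receptor gene, had 0.60 and 0.43 against 0.20, 0.21 and 0.25 FPKM. *Gdf15*, a stress-induced cytokine gene, had 0.46 and 0.38 against 0.45, 0.53 and 0.30 FPKM, and *Fgf21*, a hormone gene, at most 0.22 FPKM. The cystine transporter gene *Slc7a11*, whose promoter window held the ATF4 element at 2 places, had 0.19 to 0.44 FPKM in all libraries. These genes had a mean under 1 FPKM, below the filter, and were named after their values were seen.

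Across the 4 day 0 libraries *Ddit4* stood in the same order as *Dusp1*, an early response phosphatase gene, and *Tsc22d3*, which like *Ddit4* is known to respond to glucocorticoids. In control replicates 1 and 2 and *Mct1*-deficient replicates 1 and 2, *Dusp1* had 37.5, 59.1, 45.4 and 26.6 FPKM and *Tsc22d3* had 209, 269, 231 and 131 FPKM. The glucocorticoid target *Fkbp5* had another order (17.5, 24.7, 35.3 and 31.0 FPKM). Of the further genes looked at, *Per1* had the same order (20.0, 22.8, 22.7 and 18.9 FPKM) and *Klf9* another (1.78, 2.40, 2.47 and 1.73 FPKM). The remaining genes of the early response and heat shock list had other orders, such as *Fos* (52.7, 63.3, 49.4 and 43.1 FPKM). The genes were chosen after their values were seen and nothing was tested.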
